A study of Mus musculus with 6 samples.

Results

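The tricarboxylic acid cycle enzymes described here are 9 nuclear genes, Cs, Idh2, Idh3a, Idh3b, Ogdh, Suclg1, Sucla2, Fh1 and Mdh2, found by symbol among 52550 mouse genes in the deposited table. To determine whether the RNA for these enzymes differed by genotype, 3 FLExDUX4 and 3 WT male littermates were compared by 3′ mRNA sequencing of muscle. Per the labels the mice were 13 weeks old and the muscle was quadriceps, whereas the methods of the study describe triceps from younger mice. The FLExDUX4 mice, a model of facioscapulohumeral muscular dystrophy, were hemizygous for a human DUX4 transgene that sits inverted at Rosa26 and leaks at a low level, and the labels name no Cre driver. The transgene itself was not analysed here. The wild-type (WT) mice lack the transgene. The values used are the counts of each gene summed over the mice of a genotype, so there is 1 total for each genotype, no replicate error and no test across mice. Intervals given below are 95% Clopper-Pearson intervals on the ratio of the totals. They cover counting error only, because PCR copies are not independent molecules and the spread between mice is not in them.

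The cycle runs in the mitochondrial matrix. It takes up acetyl-CoA made from pyruvate, fatty acids and amino acids, oxidizes it to carbon dioxide, and passes the electrons to the respiratory chain as NADH and reduced flavin. Skeletal muscle depends on it during sustained work, and oxidative fibers hold more of these enzymes than glycolytic fibers. Citrate synthase activity is a standard measure of the mitochondrial content of muscle.

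The totals of the 9 enzymes differed little between genotypes. After scaling, the ratio of FLExDUX4 to wild-type ranged from 0.906-fold for Cs to 1.07-fold for Ogdh, with a median log2 ratio of -0.04 over the 9 genes and of 0.00144 over the 11993 genes tested. None of the 9 reached a difference of 1.2-fold, a size reached by 47.0% of all genes tested (24.1% higher and 22.9% lower). Most genes tested had far fewer counts than these enzymes. Among the 543 genes with at least as many counts as Fh1, the enzyme with the fewest, 4.97% reached 1.2-fold (3.50% higher and 1.47% lower), so 0 of 9 is near that background. At 1.1-fold 1 of the 9 (Cs) was past the limit, against 67.6% of all genes tested and 23.0% of the 543, and at 1.5-fold none was, against 19.3% and 0.368%.

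The scaling used here, TMM, sets the bulk of genes to a ratio near 0. A scaling to the spike-in RNAs, which were added to the samples in the laboratory, moved every log2 ratio by -0.27, and the median of all genes with it, so directions below are relative to the bulk of genes. With spike-in totals all 9 enzymes were lower in FLExDUX4 muscle, by log2 ratios from -0.17 to -0.41, as were 76.4% of all genes tested and 96.9% of the 543 genes. The totals behind the comparison were 13110125 gene counts for FLExDUX4 muscle and 18367364 for WT, with 1.65% and 1.40% of all counts on spike-ins. All 10 muscle markers examined were detected. Among them Ckm, muscle creatine kinase, had 158243 and 218032 counts, and fast-fiber markers together were at 101590 CPM (counts per 1e6 scaled gene counts) in FLExDUX4 muscle and 105300 CPM in WT, against 3866 and 3986 CPM for oxidative-fiber markers.

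Together the 9 enzymes took 39112 counts in FLExDUX4 muscle and 56828 in WT. This is 0.298% of the gene counts in FLExDUX4 muscle and 0.309% in WT, a log2 ratio of shares of -0.05 (interval -0.07 to -0.03). This share needs no scaling factor, but it is taken from a total in which the 10 genes with the most counts hold 43.6% in FLExDUX4 muscle and 42.4% in WT. Without those 10 genes the shares were 0.529% and 0.537%, and the log2 ratio was -0.02.

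The assay reads the 3′ end of each polyadenylated transcript, so levels in CPM are given without division by length. Comparing them between genes assumes that reads were captured and assigned alike for each gene, which was not tested. In both genotypes Mdh2, the mitochondrial malate dehydrogenase, had the highest level, with 824.9 CPM in FLExDUX4 muscle and 835.4 CPM in WT. It ranked 75th and 77th among all genes. Idh3a followed with 514 and 543 CPM, and Ogdh came next with 367 and 342 CPM. Fh1, fumarase, had the lowest level, with 147 and 162 CPM, and ranked 576th and 523rd. The other 5 enzymes lay between 173 and 271 CPM in FLExDUX4 muscle and between 178 and 299 CPM in WT.

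The order of the levels was nearly the same in both groups. In FLExDUX4 muscle Cs (271 CPM) and Suclg1 (269.8 CPM) had overlapping counting intervals, as did Suclg1 and Sucla2 (256 CPM). In WT the intervals of Cs (299 CPM) and Suclg1 (285 CPM) also overlapped, whereas that of Sucla2 (247 CPM) lay below both. Idh2 and Idh3b exchanged places, with 184 and 173 CPM in FLExDUX4 muscle against 178 CPM for each in WT, and their intervals overlapped in both groups. Whether these neighbours differ beyond the spread between mice cannot be told from group totals.

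**Figure D1:**
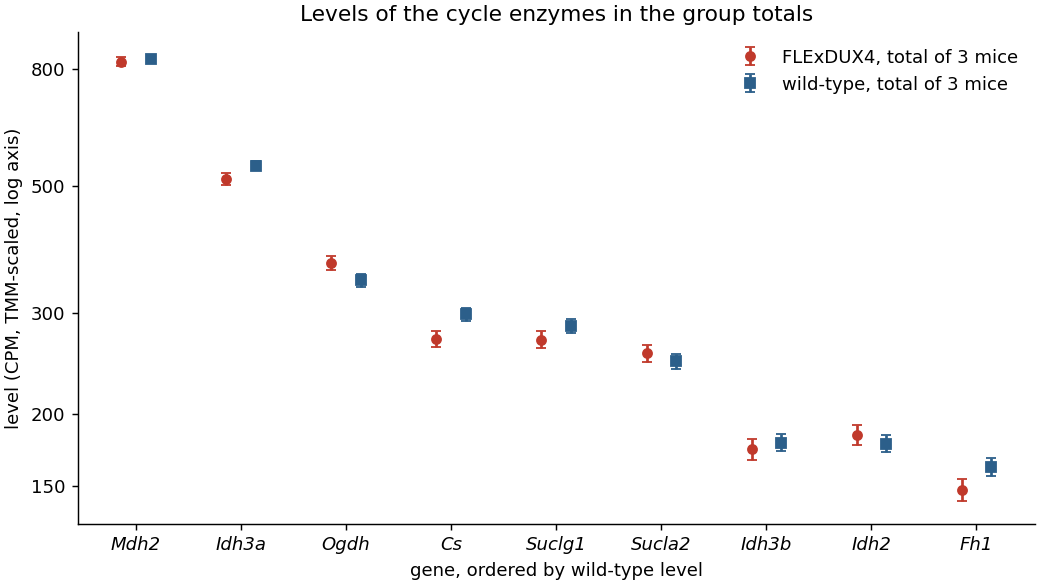
Level of each of the 9 enzymes (vertical axis, TMM-scaled CPM on a log axis) in the total of FLExDUX4 (circles) and of WT (squares), with bars for the 95% Poisson interval, which covers counting error only. Mdh2 is highest at 824.9 and 835.4 CPM, Fh1 lowest at 147 and 162 CPM, and the difference between genotypes is small beside the differences between genes.

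The 9 genes lie on 9 different chromosomes of GRCm38, 6 of them on the plus strand, and the lowest annotated coordinate of each equals the deposited start. Each is protein-coding. Cs (ENSMUSG00000005683) lies on chromosome 10 from 128337734 to 128362479, Ogdh (ENSMUSG00000020456) on chromosome 11 from 6291633 to 6356642, and Fh1 (ENSMUSG00000026526) on chromosome 1 from 175600374 to 175625635, on the minus strand. Idh2 (chromosome 7, 80094846 to 80115392) and Idh3b (chromosome 2, 130279309 to 130284547) are also on the minus strand. The plus strand holds Idh3a (chromosome 9, 54586334 to 54604661), Suclg1 (chromosome 6, 73248382 to 73276911), Sucla2 (chromosome 14, 73525319 to 73596142) and Mdh2 (chromosome 5, 135778480 to 135790398). Annotated genes that overlap some of the 9 had few counts, and the strand setting of the counting is not given, so reads of opposite genes cannot be told apart. Kmo overlaps Fh1 on the opposite strand and had 7 and 30 counts, Nop56, on the opposite strand, shares 5 bases with Idh3b and had 144 and 205 counts, and Gm45203 lies within Idh2 on the same strand with 34 and 51 counts. The small nucleolar RNA Gm23182 within Cs had 0 in both groups. In the last 300 bases of their transcripts none of the 9 had a stretch of at least 75 bases with 95% identity to a transcript of another gene.

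RefSeq start sites (GRCm38.p6) were matched for 8 of the 9 genes, all but Idh3a, and the windows from 250 bases before to 50 bases after each start were searched on both strands for letters known from promoters of metabolic genes. The CCAAT box (CCAAT) was found for Cs, Idh2, Idh3b, Ogdh and Fh1, against 37.4% of 32851 promoters. The E-box read by CLOCK and its partner (CACGTG) and a nuclear receptor half-site (AAGGTCA) were found for Ogdh, which has 6 windows, against 7.15% and 4.72% of promoters. An ETS site (CCGGAAG) was found for Idh3b (8.86% of promoters), the NRF-1 palindrome for Sucla2 (4.60%), and the TATA box (TATAAA) for none of the 8 (13.6%). No motif was common to all 8, and a match is a string of letters, with no binding measured here. Windows of the 3 enzymes with the log2 ratios of FLExDUX4 to WT furthest from 0 are printed 5′ to 3′ on the strand of the gene, with motif matches in capitals. These are Ogdh, with the highest ratio (chr11:6291920-6292219, plus strand, the window of its 6 that holds most matches), and those with the lowest ratios, Cs (chr10:128337477-128337776, plus strand) and Fh1 (chr1:175625586-175625885, minus strand).
Ogdh: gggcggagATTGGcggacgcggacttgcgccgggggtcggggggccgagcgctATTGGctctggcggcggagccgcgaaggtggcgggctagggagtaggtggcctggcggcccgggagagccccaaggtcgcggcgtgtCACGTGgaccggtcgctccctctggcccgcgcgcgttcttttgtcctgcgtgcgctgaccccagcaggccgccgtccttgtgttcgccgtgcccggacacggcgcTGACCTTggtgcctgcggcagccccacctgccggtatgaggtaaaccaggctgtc
Cs: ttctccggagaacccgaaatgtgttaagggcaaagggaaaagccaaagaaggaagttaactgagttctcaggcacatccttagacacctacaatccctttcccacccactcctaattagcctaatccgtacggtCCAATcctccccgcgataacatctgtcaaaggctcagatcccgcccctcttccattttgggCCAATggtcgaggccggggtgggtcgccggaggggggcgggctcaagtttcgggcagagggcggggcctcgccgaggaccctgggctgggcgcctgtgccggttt
Fh1: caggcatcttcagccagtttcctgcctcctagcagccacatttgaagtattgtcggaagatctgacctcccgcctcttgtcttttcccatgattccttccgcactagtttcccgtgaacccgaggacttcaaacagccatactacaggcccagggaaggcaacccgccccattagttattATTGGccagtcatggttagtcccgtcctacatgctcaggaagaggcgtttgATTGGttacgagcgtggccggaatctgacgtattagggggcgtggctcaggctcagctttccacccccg
The Ogdh window holds an E-box, the reverse complement of the half-site and a pair of CCAAT boxes read on the other strand (ATTGG). The Cs and Fh1 windows hold CCAAT boxes alone among the motifs searched, and in these 3 windows no match overlaps another.

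Cs, citrate synthase, joins acetyl-CoA to oxaloacetate and opens the cycle. It had 3520 counts in FLExDUX4 muscle and 5533 in WT, a difference of -9.42% after scaling. Its log2 ratio of -0.14 (interval -0.20 to -0.08) was the lowest of the 9. It stayed below 0 under each scaling tried.

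Isocitrate is oxidized by 2 mitochondrial enzymes. The NAD-dependent enzyme of the cycle proper is built from the catalytic subunit Idh3a and the subunits Idh3b and Idh3g, while Idh2 uses NADP and supplies NADPH to the matrix. Idh3a had 6688 counts in FLExDUX4 muscle and 10059 in WT, a log2 ratio of -0.08 (interval -0.12 to -0.03). Idh3b had 2256 counts against 3302, and its log2 ratio of -0.04 had an interval that held 0 (-0.12 to 0.04). For Idh3g, not one of the 9, the counts were 2698 and 3670 and the log2 ratio was 0.07 (interval -0.01 to 0.14), or -0.20 with spike-in totals. Idh2 had 2392 counts against 3287, with a log2 ratio of 0.05 (interval -0.03 to 0.13) that was -0.22 with spike-in totals.

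Ratios between genes of a group do not depend on the scaling. Idh3a counts were 2.96 times those of Idh3b in FLExDUX4 muscle and 3.05 times in WT, a log2 change of -0.04 whose interval held 0 (-0.13 to 0.05). Relative to Idh3g, Idh3a differed by -0.14 on the log2 scale (interval -0.23 to -0.06) and Idh3b by -0.11 (interval -0.21 to 0.00069). The ratio of Idh2 to Idh3a was 0.358 in FLExDUX4 muscle and 0.327 in WT, a log2 change of 0.13 (interval 0.04 to 0.22). An interval that excludes 0 is common among pairs of this depth (59.5% of the pairs of the 543 genes).

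Ogdh encodes the E1 subunit of the oxoglutarate dehydrogenase complex, which decarboxylates 2-oxoglutarate to succinyl-CoA with the help of Dlst (E2) and Dld (E3). Ogdh had 4779 counts in FLExDUX4 muscle and 6337 in WT, and its log2 ratio of 0.10 (interval 0.05 to 0.16) was the highest of the 9, though it was -0.17 with spike-in totals. Dlst had 1364 counts against 2305 and a log2 ratio of -0.25 (interval -0.34 to -0.15). Dld, which other dehydrogenase complexes also use, had 973 against 1466 and a ratio of -0.08 (interval -0.20 to 0.04). The E1 and E2 subunits of this complex thus lay on opposite sides of the bulk of genes, and both were lower with spike-in totals. Ogdh counts were 3.50 times those of Dlst in FLExDUX4 muscle and 2.75 times in WT, a log2 change of 0.35 (interval 0.24 to 0.46) that no scaling alters. Ogdhl, a brain-enriched relative of Ogdh, had 0 counts in both groups, and 3 counts, the one-sided 95% limit for a count of 0, correspond to 0.231 CPM in FLExDUX4 muscle and 0.162 CPM in WT.

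Succinyl-CoA synthetase pairs the alpha subunit Suclg1 with the beta subunit Sucla2, which forms ATP, or Suclg2, which forms GTP. Suclg1 had 3509 counts in FLExDUX4 muscle and 5275 in WT, a log2 ratio of -0.08 (interval -0.14 to -0.02). Sucla2 had 3324 counts against 4576, which gave a log2 ratio of 0.05 (interval -0.02 to 0.11) that was -0.22 with spike-in totals. The ratio of Suclg1 to Sucla2 was 1.06 in FLExDUX4 muscle and 1.15 in WT, a log2 change of -0.13 (interval -0.22 to -0.04). Suclg2 was far less abundant, with 326 and 367 counts, a log2 ratio of 0.34 (interval 0.12 to 0.56) and of 0.07 with spike-in totals. The last 300 bases of Suclg2 match Gm15163, which had 0 counts, at 99.3% identity, and how reads with several matches were counted is not given, so its level is uncertain. Sucla2 outnumbered Suclg2 by 10.2 times in FLExDUX4 muscle and 12.5 times in WT.

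Succinate dehydrogenase, which is also respiratory complex II, has none of its subunits among the 9. Sdha, the flavoprotein, had 4390 counts against 6231 and a log2 ratio of 0.00442 (interval -0.05 to 0.06) that was -0.26 when scaled to spike-ins. Sdhb, the iron-sulfur subunit, had 6334 counts against 9698, and its log2 ratio was -0.10 (interval -0.15 to -0.06). The membrane anchors Sdhc and Sdhd had log2 ratios of 0.08 (interval 0.02 to 0.14, but -0.19 with spike-in totals) and -0.17 (interval -0.27 to -0.08). The subunits of this complex thus spread over about the same range as the 9 enzymes.

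Fh1 encodes fumarase, which hydrates fumarate to malate. It had 1916 counts in FLExDUX4 muscle and 2991 in WT, a difference of -8.79% after scaling, with a log2 ratio of -0.13 (interval -0.22 to -0.05). Mdh2, which oxidizes malate to oxaloacetate and closes the cycle, had 10728 counts against 15468 and a log2 ratio of -0.02 (interval -0.05 to 0.02). Its cytosolic counterpart Mdh1 was at -0.04 on the log2 scale (interval -0.10 to 0.01). The Mdh2 to Mdh1 ratio was 2.67 in FLExDUX4 muscle and 2.62 in WT.

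**Figure D2:**
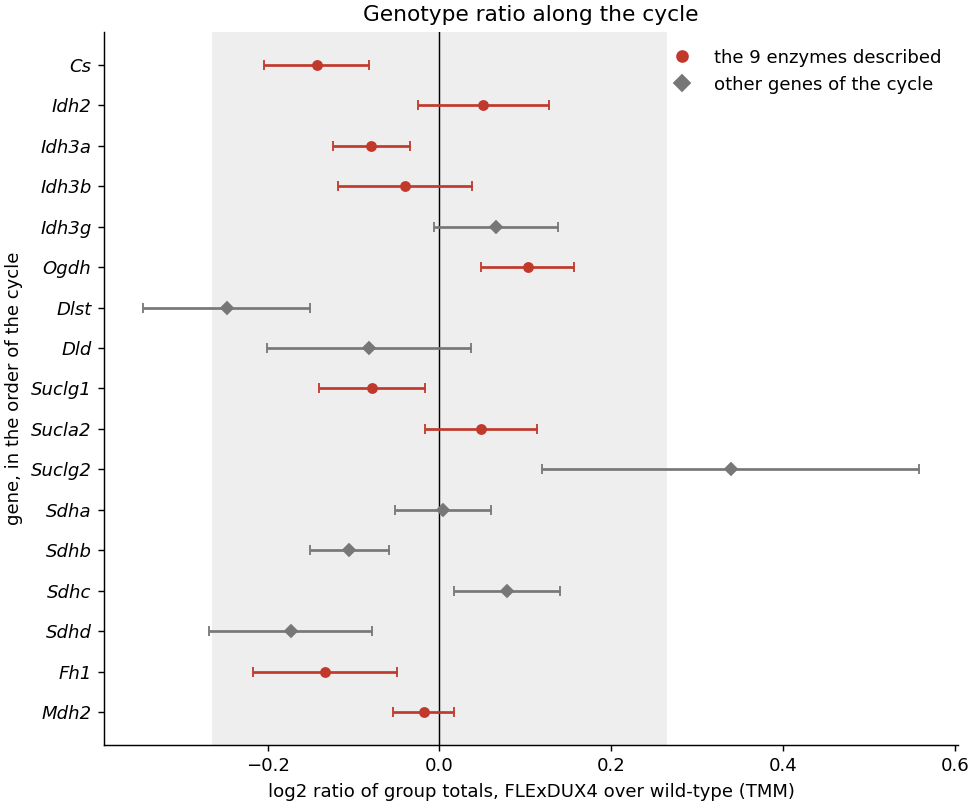
Log2 ratio of the group totals (horizontal axis, FLExDUX4 over wild-type, TMM) for the 9 enzymes (red circles) and 8 other genes of the cycle (grey diamonds), in the order of the cycle, with 95% intervals for counting error and the band of less than 1.2-fold shaded. All 9 enzymes lie in the band, from Cs at -0.14 to Ogdh at 0.10, while Suclg2 lies outside it at 0.34.

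Counted over the 9 enzymes, 3 were higher and 6 lower in FLExDUX4 muscle, and with spike-in totals all 9 were lower. Of all genes tested 50.2% were higher and 49.8% lower, and of the 543 genes of like depth 48.1% and 51.9%, so the split of 9 genes is no result about them. The counting interval lay above 0 for Ogdh, below 0 for Cs, Idh3a, Suclg1 and Fh1, and held 0 for Idh2, Idh3b, Sucla2 and Mdh2. An interval that excludes 0 was found for 39.1% of all genes tested and for 58.9% of the 543 genes with at least as many counts as Fh1, so 5 of 9 is near the background of genes of this depth. Intervals below 0 alone were found for 33.5% of those 543 genes and 19.5% of all genes tested, and intervals above 0 for 25.4% and 19.6%. From the 25th to the 75th percentile the ratios of the 543 genes ran from -0.08 to 0.05 on the log2 scale, and 5% lay below -0.19. Cs, Fh1, Idh3a and Suclg1 lay below the 25th percentile but above -0.19, and Ogdh lay above the 75th percentile. A log2 ratio no larger in size than that of Cs was found for 33.4% of all genes tested and 77.7% of the 543.

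The 9 enzymes were compared with each other in 36 pairs. The change in the ratio of the pair between genotypes had a counting interval that excluded 0 for 18 pairs and held 0 for 18. Beside the 59.5% among the 147153 pairs of the 543 genes of like depth, 18 of 36 is not more than the background. The largest change was between Ogdh and Cs, 0.25 on the log2 scale (for Cs relative to Ogdh -0.25, interval -0.33 to -0.16), the enzymes with the highest and lowest ratios. Relative to Fh1, Ogdh differed by 0.24 (interval 0.14 to 0.34). Cs and Fh1 could not be told apart within counting error, with a log2 change of Cs relative to Fh1 of -0.01 (interval -0.11 to 0.09), nor could Idh3a and Suclg1 (-0.00073, interval -0.08 to 0.08). The pairs share genes, and the spread between mice is not in these intervals.

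**Figure D3:**
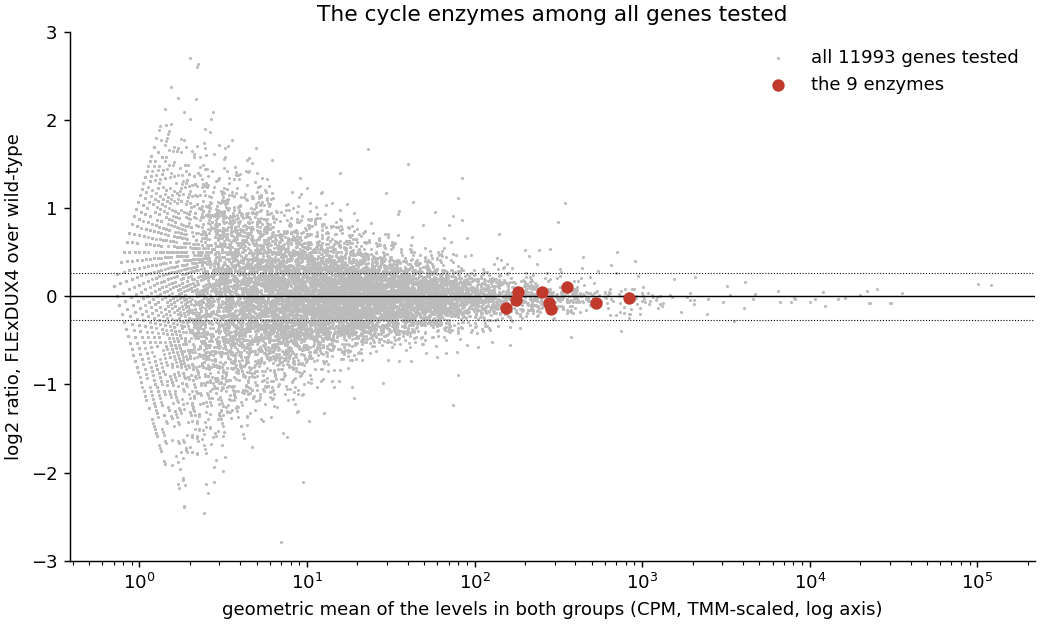
Log2 ratio of the group totals (vertical axis, FLExDUX4 over wild-type, TMM) against the geometric mean level (horizontal axis, CPM on a log axis) for 11993 genes tested (grey) and the 9 enzymes (red), with dotted lines at 1.2-fold. The enzymes lie between -0.14 and 0.10, inside the narrow spread of genes of like abundance, and genes with few counts spread much wider.

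Beyond the 9, the other genes of the cycle spread around the median gene as well. Of 9 examined, 8 had enough counts, 4 were higher and 4 lower, and their median log2 ratio was -0.04. Their intervals lay above 0 for Suclg2 and Sdhc and below 0 for Dlst, Sdhb and Sdhd. Only Suclg2 reached 1.2-fold. Of the succinate dehydrogenase assembly factors, Sdhaf4 had the highest log2 ratio at 0.29 (interval 0.13 to 0.44, but 0.02 with spike-in totals). Sdhaf3 had the lowest at -0.43 (interval -0.85 to -0.03), from 78 and 150 counts. Among the cytosolic counterparts, Idh1 was at 0.30 on the log2 scale (interval 0.08 to 0.52, but 0.03 with spike-in totals). Acly, which splits exported citrate, was at -0.33 (interval -0.64 to -0.02). In each of these lists 1 of 4 genes was higher and 3 were lower, with medians of -0.20 for the assembly factors and -0.18 for the cytosolic counterparts.

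At the entry to the cycle from pyruvate the ratios furthest from 0 were those of regulators. Pdha1, Pdhb and Dlat, the E1 and E2 subunits of pyruvate dehydrogenase, had log2 ratios of 0.00554, -0.04 and -0.04, each with an interval that held 0. Pdk4, the kinase that switches this complex off in fasting, had 5470 counts in FLExDUX4 muscle and 4329 in WT. This is 421 and 234 CPM, a log2 ratio of 0.85 (interval 0.79 to 0.90) and of 0.58 with spike-in totals. Pdp1, a phosphatase that switches the complex on, had 381 counts against 717 and the lowest log2 ratio of this list, -0.40 (interval -0.59 to -0.22). The regulators did not share 1 direction. The other phosphatase Pdp2, with 129 counts in each group, was at 0.51 (interval 0.15 to 0.87), and the kinase Pdk2, with 2648 against 4182 counts, was at -0.15 (interval -0.22 to -0.08). The kinases Pdk1, from 365 and 418 counts, and Pdk3, from 16 and 18, were higher. Their log2 ratios were 0.31 (interval 0.11 to 0.52) and 0.34 (interval -0.73 to 1.39). Of the 11 genes 6 were higher and 5 lower, with a median of 0.00476. A difference of 1.2-fold was reached by 5 of the 11, near the 47.0% of all genes tested. Whether Pdk4 differs beyond the spread between mice was not tested.

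Other routes into the cycle also held single genes with ratios far from 0. Pcx, pyruvate carboxylase, which makes oxaloacetate, had 262 counts against 216 and a log2 ratio of 0.79 (interval 0.52 to 1.05), the highest of the 9 anaplerotic genes. Pck2 had the lowest, -0.97 (interval -2.00 to -0.10), from 14 and 40 counts. Of these 9 genes 4 were higher and 5 lower, their median was -0.01, and 2 reached 1.2-fold. Of the carriers 6 of 7 were tested, 2 higher and 4 lower with a median of -0.03, and the citrate carrier Slc25a1 had 42 counts against 21 and a log2 ratio of 1.49 (interval 0.72 to 2.34), while Slc25a12, which exchanges aspartate and glutamate, had the lowest, -0.10 (interval -0.17 to -0.03). Among the 6 carriers 1 reached 1.2-fold. That size was reached by 47.0% of all genes tested, so neither 2 of 9 nor 1 of 6 is above the background. The low counts of Slc25a1 and Pck2 leave wide intervals.

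The respiratory chain, to which the cycle hands its electrons, was centred near the median gene as well. Of 36 complex I subunits 15 were higher and 21 lower, with a median log2 ratio of -0.01 and a range from -0.25 (Ndufa5) to 0.10 (Ndufa8, but -0.17 with spike-in totals). None of them reached 1.2-fold. Of 37 subunits of complexes III to V 19 were higher and 18 lower, with a median of 0.00185. They ranged from -0.25 (Atp5l, interval -0.54 to 0.03) to 0.29 (Cox6a1, but 0.03 with spike-in totals). Of these subunits 2 reached 1.2-fold, a size reached by 47.0% of all genes tested and 4.97% of the 543. Of the 14 glycolytic enzymes 8 were higher and 6 lower, with a median of 0.03. They ranged from -0.22 (Pgk1, from 78 and 130 counts, interval -0.65 to 0.19) to 0.59 (Eno1, from 96 and 91 counts). These medians stand beside -0.04 for the 9 enzymes and were not tested against it.

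**Figure D4:**
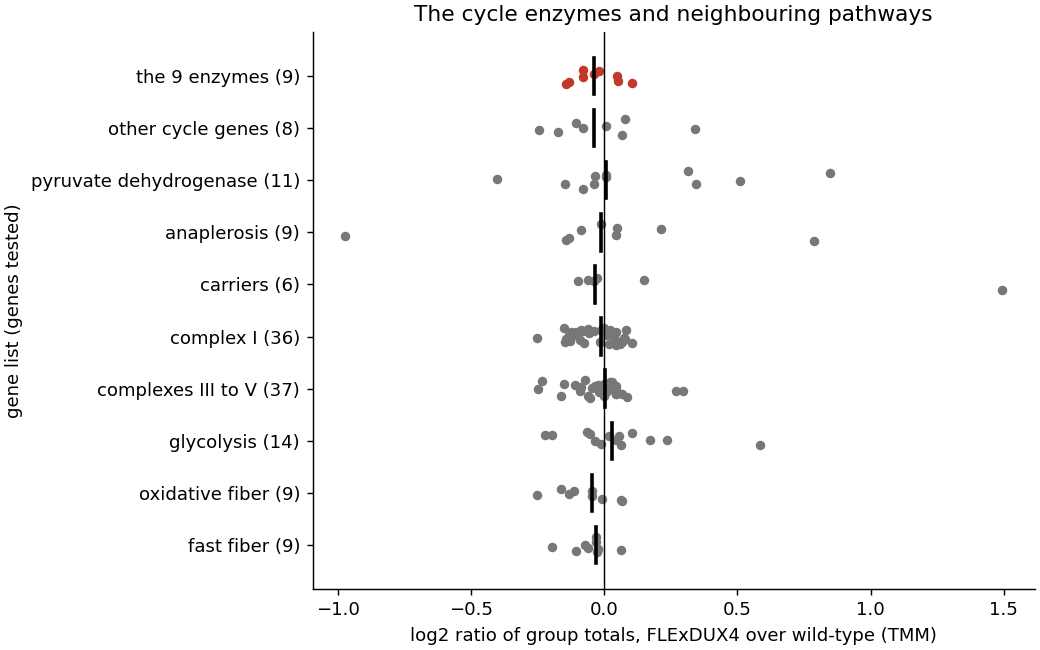
Log2 ratio of the group totals (horizontal axis, FLExDUX4 over wild-type, TMM) for each tested gene of 10 lists (rows, number of genes in brackets), with a black bar at the median and the 9 enzymes in red. The 9 enzymes and the respiratory complexes cluster near 0. The ratios furthest from 0 in their lists include Pdk4 at 0.85, Pcx at 0.79, Slc25a1 at 1.49 and Pck2 at -0.97, where Slc25a1 and Pck2 had few counts.

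Fiber and cell type markers were measured beside these ratios. Of the 10 general muscle markers 2 were higher and 8 lower, with a median log2 ratio of -0.05 and a range from -0.20 (Des) to 0.05 (Ckm, but -0.22 with spike-in totals). Of 9 oxidative-fiber markers 2 were higher and 7 lower, with a median log2 ratio of -0.05 and a range from -0.25 (Myl2) to 0.07 (Atp2a2, but -0.20 with spike-in totals). Of 9 fast-fiber markers 1 was higher and 8 lower, with a median of -0.03 and a range from -0.20 (Myh1) to 0.06 (Myl1, but -0.21 with spike-in totals). Most of the general muscle markers are counted again in a fiber list, so these tallies are not independent. Among all genes tested 49.8% were lower. Red blood cell markers were higher for 5 of 5 genes (Hba-a1 at -0.02 with spike-in totals), at 1276 CPM in FLExDUX4 muscle and 1022 CPM in WT together. Adipocyte markers were higher for 5 of 6, at 383 and 304 CPM, and fibroblast markers for 4 of 5, at 1244 and 1132 CPM. Endothelial markers were higher for 1 of 4, at 153 and 178 CPM, and leukocyte markers for 2 of 5 tested, at 63.9 and 65.3 CPM, with Cd3e at 3 and 0 counts. The highest and lowest log2 ratios for adipocytes were Cfd at 0.87 (interval 0.76 to 0.98) and Lep at -0.82 (from 12 and 31 counts). For endothelium they were Pecam1 at 0.06 and Tek at -0.64. Kdr was at -0.57 (interval -0.71 to -0.43, 48.6 and 72.0 CPM), and the intervals of Pecam1 and Cdh5 held 0. The extremes for leukocytes were Ptprc at 0.43 (from 66 and 70 counts) and Adgre1 at -0.67 (from 24 and 55 counts). All 5 leukocyte markers tested had an interval that held 0. Fibroblast markers ran from -0.00118 (Col3a1) to 0.53 (Col1a1, 292 and 203 CPM), and 3 of the 5 had an interval that held 0. Red blood cell markers ran from 0.25 (Hba-a1) to 0.44 (Alas2). With spike-in totals the numbers of higher genes were 4 of 5 for red blood cell, 3 of 6 for adipocyte, 2 of 5 for fibroblast, 0 of 4 for endothelial and 1 of 5 for leukocyte markers. The part of these cells in the ratios of the enzymes was not tested, and fewer cells of a type cannot be told apart from less RNA per cell.

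The choice of scaling moved the 9 enzymes together. Under TMM, RLE, upper quartile, gene totals and gene totals without the 10 genes with the most counts, Ogdh, Idh2 and Sucla2 were higher and the other 6 lower. The interval of Mdh2 held 0 under these scalings except gene totals, where its log2 ratio was -0.04 and 5 enzymes in place of 4 had an interval below 0. With gene totals 21.5% of all genes tested and 40.3% of the 543 had one. With spike-in totals none was higher, and 6 of the 9 reached 1.2-fold lower. That size was then reached by 50.5% of all genes tested and 54.9% of the 543 genes, so 6 of 9 is near the background. The interval lay below 0 for all 9, and it did not for 52.2% of all genes tested and for 4.97% of the 543. Of the 45 spike-ins that had 60 counts or more, 39 had a higher scaled level in FLExDUX4 muscle (median log2 ratio 0.27). From these totals, more spike-in added and less mRNA per sample cannot be told apart.

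**Figure D5:**
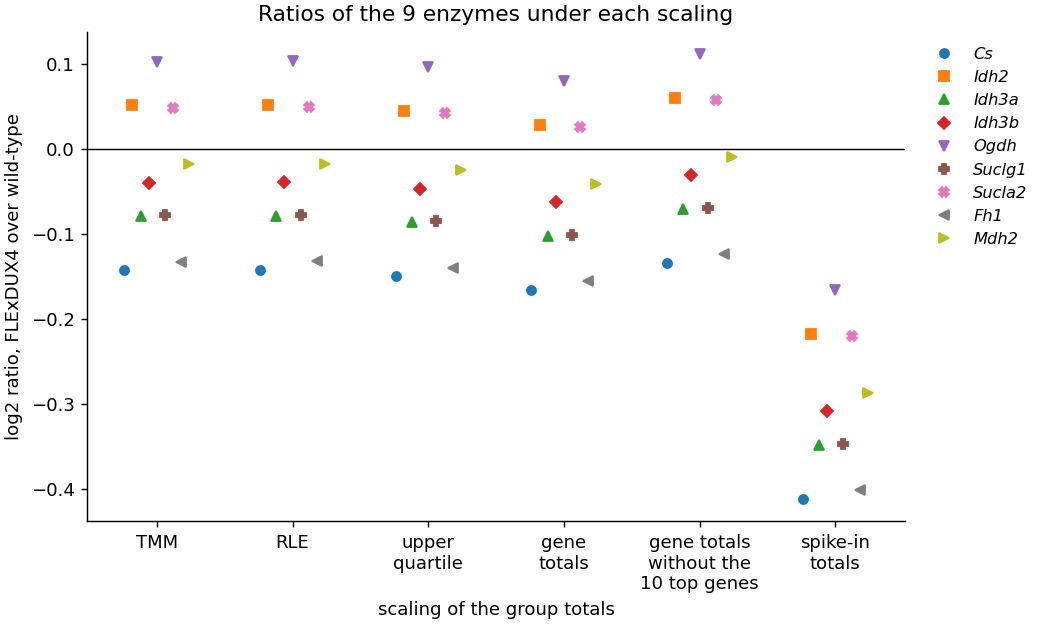
Log2 ratio of the group totals (vertical axis, FLExDUX4 over wild-type) of the 9 enzymes (markers) under 6 scalings of the totals (horizontal axis). Each scaling shifts all 9 by 1 constant, and with spike-in totals all lie between -0.41 and -0.17.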

How the data were processed

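Libraries were made with the QuantSeq 3′ mRNA-Seq kit (FWD) and sequenced on a NextSeq 500. The submitters' processing notes name Cutadapt 1.16, STAR 2.5.3a, featureCounts 1.6.2 and DESeq2. The study's methods give GRCm38.90 joined to ERCC and SIRV spike-in sequences as the reference. The strand setting and the treatment of reads with several matches are not given in the sources used here. The table deposited by the authors holds 52649 features with raw read counts summed over the 3 mice of each genotype, not normalized, and these counts were used. A further 6 columns of values per sample carry names that match no sample label and were not used. The table also holds 6 columns of the authors' comparison of genotypes (mean, fold change, standard error, statistic and p-values), which were not used.

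With 1 total per genotype no test across mice could be run, and edgeR's quasi-likelihood test was not possible. TMM factors came from edgeR 4.0.16 under R 4.3.3, with spike-ins left out and 11993 genes kept by filterByExpr. Log2 ratios used a pseudocount of 0.5. Clopper-Pearson intervals were computed with scipy 1.17.1 in Python 3.11.15 and checked on simulated counts. Intervals for a change in the ratio of 2 genes are exact conditional odds ratio intervals, and normal log odds ratio intervals for the share among other pairs, which also excluded 0 for 18 of the 36 pairs of members. A gene was counted as past the fold at 1.2-fold.

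The members and the gene lists were chosen with earlier results of these data known. Named were the 9 enzymes, other genes of the cycle, and the highest and lowest gene of each list. Pdha1, Pdhb, Dlat, Pdp2, Pdk1, Pdk2, Pdk3, Mdh1, Sdha, Kdr, Cdh5 and Cd3e were named after their values were seen where the rule did not name them. Aldoa, on several rows, was taken from the row with counts. Gene coordinates come from GENCODE M21 (GRCm38), which is newer than the annotation the authors counted on, and promoters from RefSeq. Some genes are not reported here.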

Additional observations from a re-analysis of the deposited data

How the results depend on the processing

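No paired analysis was possible because no column per mouse carries a name that matches a label. Leaving out each replicate, DESeq2 and the replicate-level edgeR test were not run either. The totals carry counting error only, and no difference given here, small or large, has a replicate check.

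Spike-in totals moved the results most. The log2 ratios became -0.412 for Cs, -0.2181 for Idh2, -0.3484 for Idh3a, -0.3091 for Idh3b, -0.1666 for Ogdh, -0.3476 for Suclg1, -0.2207 for Sucla2, -0.402 for Fh1 and -0.2875 for Mdh2, with a median of -0.3091. Among ratios whose interval had excluded 0, Ogdh thereby changed sign, as did Sdhc (-0.1904), Ndufa8 (-0.1656), Ckm (-0.222), Myl1 (-0.2055) and Hba-a1 (-0.02129). Idh2, Sucla2, Idh3g (-0.2034), Sdha (-0.2648), Atp2a2 (-0.2024) and Pecam1 (-0.2113), whose intervals had held 0, also went below 0. The number of the 9 enzymes that were higher went from 3 to 0, with an interval above 0 from 1 to 0, with an interval below 0 from 4 to 9, and past 1.2-fold from 0 to 6, where of the 543 genes of like depth all but 4.97% had an interval below 0 and 54.9% were past 1.2-fold lower. For these values the cause was not tested.

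With gene totals Mdh2 (-0.04) joined the 4 enzymes with an interval below 0, as for 40.3% of the 543 genes, and Ckm (0.02407), Myl1 (0.04053) and Myh1 (-0.2185) moved beyond their counting intervals. With a fold of 1.1 in place of 1.2, 1 enzyme (Cs) was past it, and with 1.5 none was, against 23.0% and 0.368% of the 543 genes. Of the gene lists 6 had a median above 0, and 4 did with upper quartile, with gene totals and with a minimum of 10 counts per total, 5 with no filter, 7 with a pseudocount of 5 and 2 with spike-in totals. The log2 ratio of the share of counts was -0.02089 without the 10 genes with the most counts, against -0.05. RLE, no filter and a pseudocount of 5 moved no value of the 9 enzymes beyond its counting interval.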
